A study of Mus musculus with 12 samples.

Results

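Inflammatory monocytes that leave the blood carry a set of transcripts for clotting factors, matrix and adhesion proteins and a few enzymes. The members described here are 9 such genes: Plac8, F10, F13a1, Vcan, Gda, Fn1, Thbs1, Emilin2 and Mgst1. They were chosen by name, with earlier results of these data known. All 9 were found among the 25919 symbols of the table, and all 9 passed the filter on low counts. They were followed in 6 bulk 3'-end RNA libraries from livers of C57BL/6 mice aged 7 weeks, with no other genotype or treatment given in the labels. Of these, 2 libraries carry the cell type label Kupffer cells at day 0, the resident macrophages of the liver, and 4 carry the label CD40 at day 2, after a receptor of antigen-presenting cells. The labels do not say what day 0 is counted from, how cells were sorted, or whether each library is a separate animal, so p-values reflect only the scatter among these 6 libraries, and that scatter may be technical. Group and day differ together and cannot be told apart.

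Classical monocytes, marked by Ly6C, are short-lived blood cells that enter injured or infected tissue. In clotting, tissue factor and factor VII activate factor X, thrombin then forms fibrin, and factor XIII cross-links it. Fibronectin, thrombospondin-1 and versican are matrix proteins that bind integrins, CD36, CD47 or CD44 on cells, and fibronectin is itself a substrate of factor XIII. Fibronectin and factor X are also made in quantity by hepatocytes, thrombospondin-1 by platelets and endothelial cells, and versican by fibroblasts, so in liver these transcripts are not limited to monocytes.

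Of the 9 genes, 6 were higher in CD40 day 2 than in Kupffer day 0 and 0 were lower (edgeR's quasi-likelihood test, Benjamini-Hochberg adjusted p under 0.05). Over all 9852 genes tested, 53.4% differed, 23.2% being higher and 30.2% lower. The 9 genes were chosen with earlier results of these data known, so these shares are context and not a test. F10, Plac8, Gda, Thbs1, Emilin2 and F13a1 rose, and Vcan, Mgst1 and Fn1 did not pass the threshold. The median log2 fold change of the 9 genes was 1.58, against -0.10 over all genes tested. The lowest CD40 library lay above the highest Kupffer library for 5 of the 9, and 0 of the 9 were separated the other way. Of all genes tested, 66.6% had groups that did not overlap, 29.7% with CD40 day 2 above and 36.9% with it below. Since these are bulk samples, fewer cells of a type and less RNA per cell cannot be told apart.

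The labels were checked first. Cd40 was at 20.1 and 18.1 CPM (counts scaled to a common library total) in the Kupffer libraries and at 382, 375, 339.6 and 225 CPM in the CD40 libraries a to d. The Kupffer lectin gene Clec4f was at 1126 and 1021 CPM against 13.7 to 21.2 CPM. Of the 15 Kupffer markers, 11 were lower in CD40 day 2 and 2, Nr1h3 and Spic, were higher. Marco and Adgre1 did not pass the threshold. Over all genes tested, 30.2% were lower and 23.2% higher. The 17 listed endothelial genes made up 2.72% and 2.84% of the Kupffer day 0 counts, more than the 0.578% and 0.493% of the 15 listed Kupffer genes. These are sums over chosen genes and not shares of cells. In Kupffer day 0 a, the lectin gene Clec4g alone held 10826 of the 43835 endothelial counts. Every difference described here is against these Kupffer day 0 libraries. Total counts ran from 688498 to 2271228, so 1 count was worth 0.455 to 1.41 CPM.

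**Figure D1:**
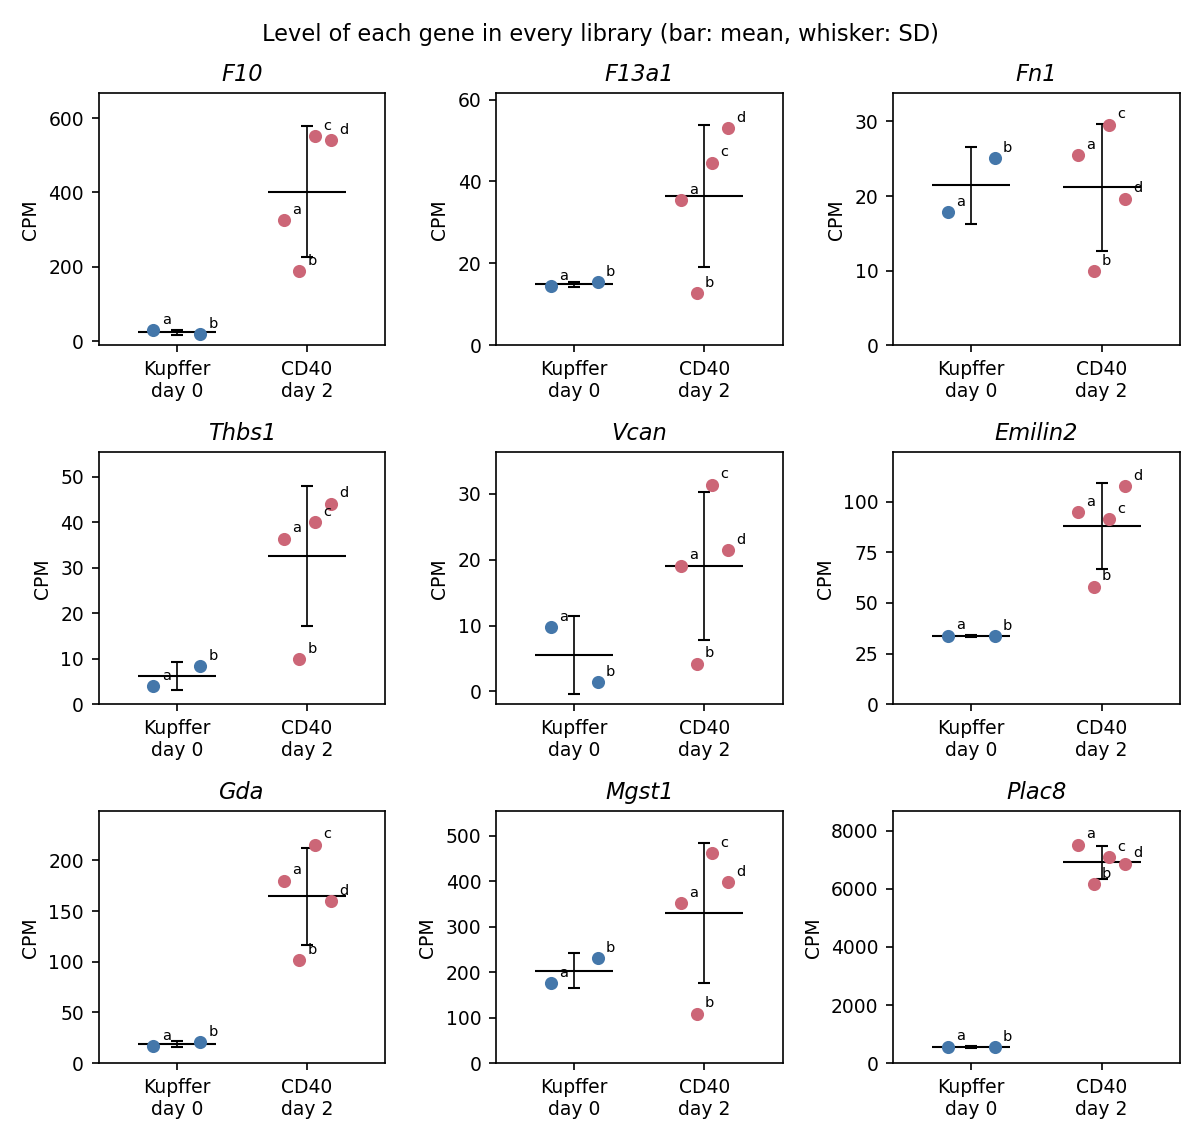
Level in CPM (vertical axes, each starting at or just below 0) of the 9 genes in the 2 Kupffer day 0 libraries and the 4 CD40 day 2 libraries, each point a library with its letter, the bar the mean and the whisker the SD. Library b is the lowest of the CD40 points in all 9 panels, and for F13a1, Vcan, Fn1 and Mgst1 it lies below both Kupffer points or, for Vcan, between them.

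The sequences before the start sites of the genes that rose together are shown because these genes shared a direction. RefSeq promoter windows (build GRCm38.p6) matched 7 of the 9 genes, all but Fn1 and Thbs1. The 250 bases before the most upstream start in that table were searched on both strands for 4 motifs. The first was GAGGAAG, a core bound by the myeloid transcription factor PU.1. The C/EBP motif was TTGCNNAA. The AP-1 motif was written as TGANTCA in this search. The TATA box was TATAAA, and matches found here lay in different windows and did not overlap. Capitals mark matches, and a sequence with no capitals has none. The windows printed are those of the genes with the highest folds, Plac8 at chr5:100572206-100572455 (minus strand), F10 at chr8:13037058-13037307 (plus strand) and Gda at chr19:21472662-21472911 (minus strand), and of F13a1 at chr13:37050245-37050494 (minus strand), all 5′ to 3′.
Plac8: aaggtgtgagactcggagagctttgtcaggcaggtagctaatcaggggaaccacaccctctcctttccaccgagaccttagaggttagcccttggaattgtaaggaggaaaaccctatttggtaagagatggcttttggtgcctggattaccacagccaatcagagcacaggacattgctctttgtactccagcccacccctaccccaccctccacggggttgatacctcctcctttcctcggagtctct
F10: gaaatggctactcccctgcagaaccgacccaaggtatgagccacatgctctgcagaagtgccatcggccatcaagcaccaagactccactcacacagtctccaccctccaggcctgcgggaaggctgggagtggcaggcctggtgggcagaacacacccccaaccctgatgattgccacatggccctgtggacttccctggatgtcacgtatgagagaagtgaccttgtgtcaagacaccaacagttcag
Gda: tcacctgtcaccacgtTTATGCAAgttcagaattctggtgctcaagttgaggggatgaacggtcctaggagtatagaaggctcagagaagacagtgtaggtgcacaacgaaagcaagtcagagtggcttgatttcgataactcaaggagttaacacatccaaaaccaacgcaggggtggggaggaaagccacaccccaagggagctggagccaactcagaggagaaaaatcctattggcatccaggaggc
F13a1: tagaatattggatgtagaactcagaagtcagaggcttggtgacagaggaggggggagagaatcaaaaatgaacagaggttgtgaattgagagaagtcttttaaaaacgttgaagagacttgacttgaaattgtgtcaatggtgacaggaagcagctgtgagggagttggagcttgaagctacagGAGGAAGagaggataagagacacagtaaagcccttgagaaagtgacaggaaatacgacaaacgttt
The PU.1 letters occurred in 1 of the 7 windows, that of F13a1, beginning 66 bases before the start. They occurred in 10.6% of all 32851 windows of this length. The C/EBP letters occurred in 2 of 7, Gda (234 bases before the start) and Mgst1 (83 bases), against 9.56% of all windows. These starts are those of RefSeq. By the GENCODE spans given below, the windows of Gda and Emilin2 lie inside the gene, and those of Plac8 and Mgst1 reach into it. The AP-1 and TATA letters occurred in 0 of 7, against 6.75% and 12.4%. These shares in 7 windows are too few to set apart from those of all windows. No motif of the 4 was common to the genes that rose and had a window. Thbs1 rose but had no window, whereas Vcan and Mgst1 had a window but did not pass the threshold.

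Among the clotting genes, F10 encodes coagulation factor X, the protease that turns prothrombin into thrombin. It lies on chromosome 8 from 13037308 to 13056676 (GRCm38) and overlaps no other annotated gene. F10 was at 29.3 and 19.5 CPM in Kupffer day 0 and at 326, 188, 552 and 540.3 CPM in CD40 day 2 a to d. All 4 CD40 libraries lay above both Kupffer libraries, with c and d at nearly the same level and b lowest. The log2 fold change was 3.99 ± 0.49 (SE), a 15.9-fold rise with a 95% interval of 7.39 to 34.1 (adjusted p = 0.00011), which placed F10 at rank 108 of the 9852 genes by fold.

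F13a1 encodes the catalytic A subunit of factor XIII, the transglutaminase that cross-links fibrin and fibronectin. It spans chromosome 13 from 36867178 to 37050244 and overlaps 2 antisense genes, and whether counting used strand is not given in the sources used here. F13a1 was at 14.4 and 15.3 CPM in Kupffer day 0 and at 35.5, 12.7, 44.6 and 53.0 CPM in CD40 day 2. Libraries a, c and d were above both Kupffer libraries and b was below both, so the groups overlap. The fold was 2.60 (log2 1.38 ± 0.47 SE, adjusted p = 0.0303). This call is the least firm of the 6. It was lost without Kupffer day 0 a (adjusted p = 0.206), without Kupffer day 0 b (0.109), without CD40 day 2 c (0.0713) and without CD40 day 2 d (0.0597), whereas without b the adjusted p was 0.00051. Over all alternatives its adjusted p ranged from 0.00029 to 0.206.

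The other genes of clotting and fibrinolysis moved both ways. Of 18 tested, 6 were higher and 8 lower, with a median log2 fold change of -0.88. F7, which encodes factor VII and ends 1498 bases before F10 on the same strand, held 202 counts over the CD40 libraries and 3 over the Kupffer libraries, which is 29.2 times as much per library total (95% counting interval 9.83 to 143, adjusted p = 8.43e-05). F7 was thus high in the same 4 libraries as its neighbour F10, at 30.0, 19.8, 37.3 and 43.5 CPM, again with b lowest. F3, which encodes tissue factor, had 16 counts over the CD40 libraries and 2 over the Kupffer libraries and was too low to test. F2, the prothrombin gene, was lower (2.28 ± 0.97 against 10.5 ± 3.02 CPM, adjusted p = 0.0026). It held 13 counts over the CD40 libraries and 28 over the Kupffer libraries, and the call was lost in 1 of 10 alternatives. Fgl2, a membrane-bound prothrombinase, was 860 ± 245 against 47.9 ± 14.97 CPM (adjusted p = 8.34e-06), and it differed from the 9 genes in that library b was the highest, at 1173 CPM. Plaur, the urokinase receptor, rose (394 ± 102 against 80.8 ± 35.5 CPM, adjusted p = 0.0003), as did its ligand Plau (29.6 ± 11.97 against 7.501 ± 0.76 CPM, adjusted p = 0.0039) and Procr, the protein C receptor (188 ± 79.0 against 16.1 ± 0.86 CPM, adjusted p = 0.00013). The call on Plau was lost in 1 of 11 alternatives.

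The clotting genes that fell include several known from endothelium. F8, which encodes factor VIII, was at 7.98 ± 4.63 against 502 ± 1.08 CPM (adjusted p = 6.24e-07). Tfpi, an inhibitor of factor X activation, was at 11.1 ± 5.36 against 355 ± 17.6 CPM, and Thbd, thrombomodulin, at 15.2 ± 8.21 against 204 ± 91.8 CPM. All 17 endothelial markers were lower in CD40 day 2, with a summed share of 0.0802% to 0.138% of counts against 2.72% and 2.84%. Their part in these falls was not tested. Tgm2, a transglutaminase like F13a1, was at 253 ± 57.7 against 235 ± 41.8 CPM, a log2 fold change of 0.12 that missed the threshold (adjusted p = 0.694).

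The 4 genes of matrix and adhesion proteins did not move alike. Thbs1 encodes thrombospondin-1, which binds CD36 and CD47 and can activate latent TGF-beta, and lies on chromosome 2 from 118111876 to 118127133, overlapping 1 gene on the other strand. It was at 4.02 and 8.36 CPM in Kupffer day 0 and at 36.4, 9.90, 40.1 and 44.1 CPM in CD40 day 2. The groups did not overlap, but b stood just above the higher Kupffer library, far under the other 3. The fold was 6.21 with a 95% interval of 2.46 to 15.7 (log2 2.64 ± 0.60 SE, adjusted p = 0.0043). The Kupffer libraries held 7 and 6 counts of Thbs1, and without Kupffer day 0 a the call was lost (adjusted p = 0.105, range over the alternatives 5.03e-09 to 0.105).

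Emilin2 encodes an elastin-associated glycoprotein of the EMILIN and multimerin family. It is on chromosome 17 from 71252172 to 71311978, overlapping 1 gene on the other strand. Emilin2 was at 33.9 and 33.4 CPM in Kupffer day 0 and at 94.7, 58.0, 91.5 and 108 CPM in CD40 day 2. The 2 Kupffer values nearly coincided and every CD40 library was above them. Its fold was 2.64 (log2 1.40 ± 0.27 SE, adjusted p = 0.0016), and it was past the threshold in all 11 alternatives.

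Vcan encodes versican, a hyaluronan-binding proteoglycan that is a common marker of classical monocytes, on chromosome 13 from 89655312 to 89742509, overlapping 2 features on the other strand. It was at 9.76 and 1.39 CPM in Kupffer day 0, or 17 and 1 counts, and at 19.1, 4.24, 31.4 and 21.4 CPM in CD40 day 2. Libraries a, c and d were above both Kupffer libraries and b lay between them. Vcan was not past the threshold (log2 fold change 1.58, 95% interval 0.071 to 3.09, adjusted p = 0.0728). The estimate moved when single libraries were left out. It was 3.80 without Kupffer day 0 a (adjusted p = 0.0725) and 1.08 without Kupffer day 0 b (0.275), and without CD40 day 2 b it was 1.87 and past the threshold (adjusted p = 0.0068).

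Fn1 encodes fibronectin and lies on chromosome 1 from 71585520 to 71653200, overlapping 1 antisense gene. It was at 17.8 and 25.1 CPM in Kupffer day 0 and at 25.5, 9.90, 29.6 and 19.7 CPM in CD40 day 2. The Kupffer values lay within the CD40 range. The log2 fold change was 0.11 with a 95% interval of -0.75 to 0.97 (adjusted p = 0.835), so a fold between 0.594 and 1.95 is within the interval. Its sign turned under 4 of the 11 alternatives, none of them past the threshold, and it was the gene of the 9 with the smallest fold change.

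**Figure D2:**
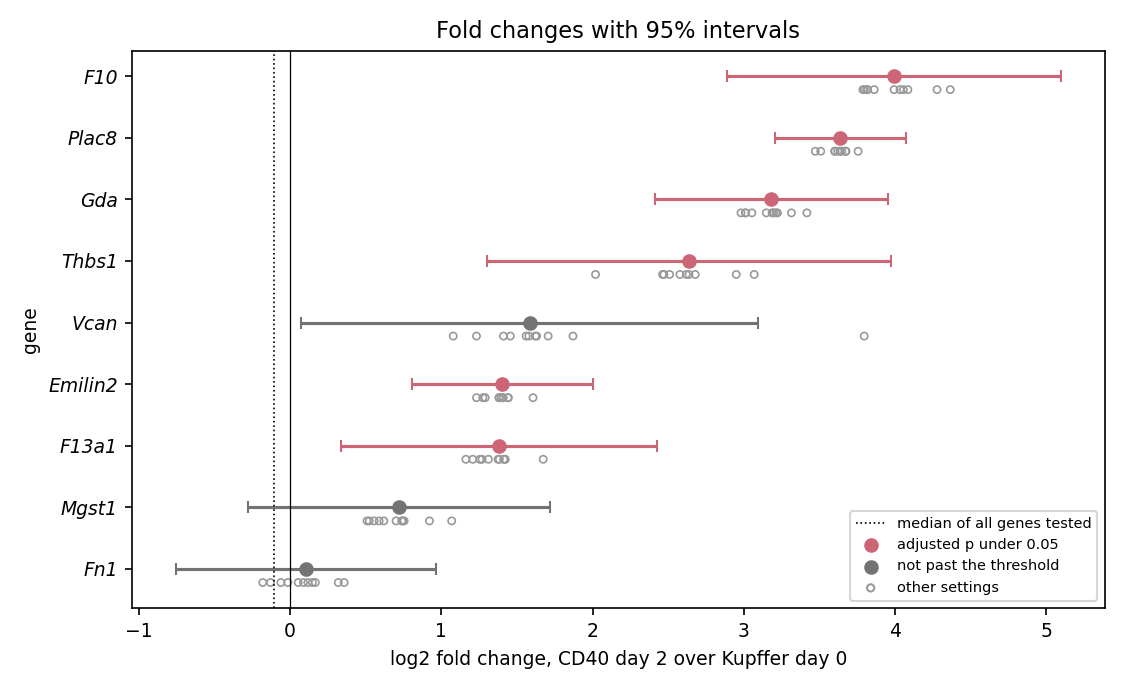
Log2 fold change of CD40 day 2 over Kupffer day 0 (horizontal axis) for the 9 genes (vertical axis), with 95% intervals as bars, and open points for the values under the other settings. F10, Plac8 and Gda lie above 2.98 at every setting, Fn1 straddles 0, and Vcan has 1 open point at 3.80, the value without Kupffer day 0 a.

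Of the other EMILIN and thrombospondin genes, Emilin1 (30.6 ± 16.0 against 230.3 ± 14.5 CPM) and Mmrn2 (12.3 ± 14.9 against 300.2 ± 36.4 CPM) fell, against the direction of Emilin2. Mmrn1, Thbs3 and Thbs4 held 0 counts in all 6 libraries. Thbs2 held 10 counts over the Kupffer libraries and 1 over the CD40 libraries, 23.1 times as much in Kupffer day 0 (95% counting interval 3.29 to 1002). In the list of matrix partners and proteases, 1 of 10 tested genes was higher and 4 were lower (median log2 fold change -0.94). The 1 that rose was Tgfbi, a matrix protein induced by TGF-beta, at 131 and 100.3 CPM against 413, 361, 867 and 1502 CPM. Adamts1, a protease that cuts versican, fell (5.51 ± 8.48 against 180.0 ± 23.1 CPM, adjusted p = 0.00011), and Adamts9, another versican protease, went from 24 counts to 0, at least 18.5-fold lower (a floor of 3 counts over the group). The stellate cell and fibroblast markers that passed the filter, 10 of 12, were all lower, with 0.00345% to 0.0124% of counts against 0.153% and 0.190%. The part of stellate and endothelial cells in the falls of matrix genes was not tested.

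The receptors that bind these matrix proteins had 7 of 17 tested genes higher and 5 lower (median log2 fold change 0.44). Integrin chains moved both ways, 4 of them rising and 3 falling. Itga4, the alpha4 chain that binds fibronectin, was at 148 ± 26.1 against 33.2 ± 1.71 CPM, and its partner Itgb7 at 125.1 ± 16.7 against 27.3 ± 12.6 CPM. Itgam and Itgb2, the chains of CD11b/CD18, were at 152 ± 54.1 against 18.1 ± 1.99 CPM and 636 ± 64.5 against 71.2 ± 19.5 CPM. Itgb1, the beta1 chain that pairs with alpha4, alpha5 and alpha9, fell (122 ± 19.6 against 232 ± 20.5 CPM, adjusted p = 0.002). Itga9, the alpha9 chain, had the lowest fold change of the list (5.35 ± 2.20 against 115 ± 5.66 CPM, adjusted p = 1.36e-06), and Itgb3, the beta3 chain, was at 1.53 ± 0.886 against 14.1 ± 3.70 CPM. Tlr2, described as a versican receptor, was at 182 ± 32.3 against 40.9 ± 9.12 CPM. The thrombospondin receptors fell, with Cd36 at 22.4 ± 10.8 against 216 ± 43.6 CPM and Cd47 at 870.2 ± 57.2 against 1250 ± 121 CPM, although the call on Cd47 (adjusted p = 0.0144) was lost in 1 of the 11 alternatives. The part of the larger endothelial share of Kupffer day 0 in the falls of receptor genes was not tested. Itga5, the alpha5 chain of the main fibronectin receptor, was at 6.81 ± 1.57 against 8.89 ± 1.21 CPM and Cd44, the hyaluronan receptor, at 108 ± 33.2 against 80.7 ± 6.08 CPM, neither past the threshold.

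Gda and Mgst1 encode enzymes. Gda is guanine deaminase, which turns guanine into xanthine, and spans chromosome 19 from 21391307 to 21473445 with no overlapping gene. It was at 16.7 and 20.9 CPM in Kupffer day 0 and at 180.2, 102, 216 and 160.2 CPM in CD40 day 2. Every CD40 library was above both Kupffer libraries, b least so. Gda rose 9.07-fold, with a 95% interval of 5.31 to 15.5 (log2 3.18 ± 0.34 SE, adjusted p = 4.65e-05). Of the other purine genes, 2 of 14 tested were higher and 4 lower (median -0.43), beside 23.2% higher and 30.2% lower over all genes tested. Aprt, which salvages adenine, rose (398 ± 138 against 63.4 ± 6.95 CPM), as did Pnp, purine nucleoside phosphorylase (375 ± 46.7 against 184 ± 21.5 CPM), which releases guanine for Gda. Xdh, which oxidises the xanthine that Gda makes, had 49.6 ± 12.1 against 67.1 ± 18.03 CPM, short of the threshold (adjusted p = 0.186). Ada, adenosine deaminase (16.9 ± 5.55 against 138 ± 5.74 CPM), and Impdh1, an enzyme of GTP synthesis (4.603 ± 3.09 against 46.6 ± 1.004 CPM), fell.

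Mgst1 encodes microsomal glutathione S-transferase 1, a membrane enzyme that detoxifies lipid peroxides, on chromosome 6 from 138140316 to 138156755 with no overlapping gene. It was at 176 and 231 CPM in Kupffer day 0 and at 352, 109, 462 and 398 CPM in CD40 day 2. Libraries a, c and d exceeded both Kupffer libraries and b was below both. The log2 fold change of 0.72 had a 95% interval of -0.28 to 1.72 and was not past the threshold (adjusted p = 0.2). Without CD40 day 2 b it was 1.07 and past it (adjusted p = 0.00074, range over the alternatives 0.00074 to 0.557). Its relatives diverged. Alox5ap, the 5-lipoxygenase activating protein, rose from 249.5 ± 54.9 to 1258 ± 236 CPM and Ptges, a prostaglandin E synthase, from 1.56 ± 0.23 to 14.4 ± 7.08 CPM. The call on Ptges was lost in 1 of 10 alternatives. Ltc4s, leukotriene C4 synthase, fell from 76.5 ± 13.6 to 8.05 ± 9.44 CPM, and Mgst3 from 83.5 ± 15.8 to 50.9 ± 10.4 CPM (adjusted p = 0.0305, lost in 5 of 11 alternatives). In all, 4 of 16 tested genes of glutathione and this enzyme family were higher and 5 lower. That is close to the 23.2% higher and 30.2% lower over all genes tested.

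Plac8 encodes a small cysteine-rich intracellular protein, also called onzin, that is abundant in myeloid and plasmacytoid cells. It lies on chromosome 5 from 100553725 to 100572245 with no overlapping gene. Plac8 was at 569.6 and 540.4 CPM in Kupffer day 0 and at 7523, 6157, 7087 and 6868 CPM in CD40 day 2. Both groups were tight and far apart. The rise was 12.4-fold with a 95% interval of 9.21 to 16.8 (log2 3.64 ± 0.19 SE, adjusted p = 8.93e-07). F10 had the higher point estimate, but its interval contained the whole interval of Plac8. Its SE was the smallest of the 9, and its CD40 libraries had the smallest coefficient of variation (8.26%).

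The CD40 day 2 libraries differed most in b. That library was the lowest of the 4 for all 9 genes, whereas it was the lowest for 33.4% of all genes tested and for 34.4% of the 2288 genes that were higher in CD40 day 2. The difference ran from small to large across the genes. The mean of a, c and d was 1.16 times the level in b for Plac8, 1.69 times for Emilin2, 1.82 times for Gda, 2.51 times for F10, 2.52 times for Fn1, 3.49 times for F13a1, 3.71 times for Mgst1, 4.06 times for Thbs1 and 5.65 times for Vcan. Library b was also the shallowest of the 4 (725683 counts), with 3 counts of Vcan, 7 of Thbs1, 7 of Fn1 and 9 of F13a1. For 8 of the 9 genes the upper limit of the 95% Poisson interval of b, which covers counting error only, lay below the lowest of a, c and d; for Fn1 it reached 20.4 CPM against 19.7 CPM in d. Library b was picked out after its values had been seen, so this is a description with no test. Without b, 8 of the 9 genes were higher in CD40 day 2, with Fn1 the exception (log2 fold change 0.36, adjusted p = 0.345). In that fit 2551 of the 9937 genes tested were higher, against 2288 of 9852 with b. Leaving out the library that was lowest for all 9 raises their folds by design, so this count too is only a description.

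**Figure D3:**
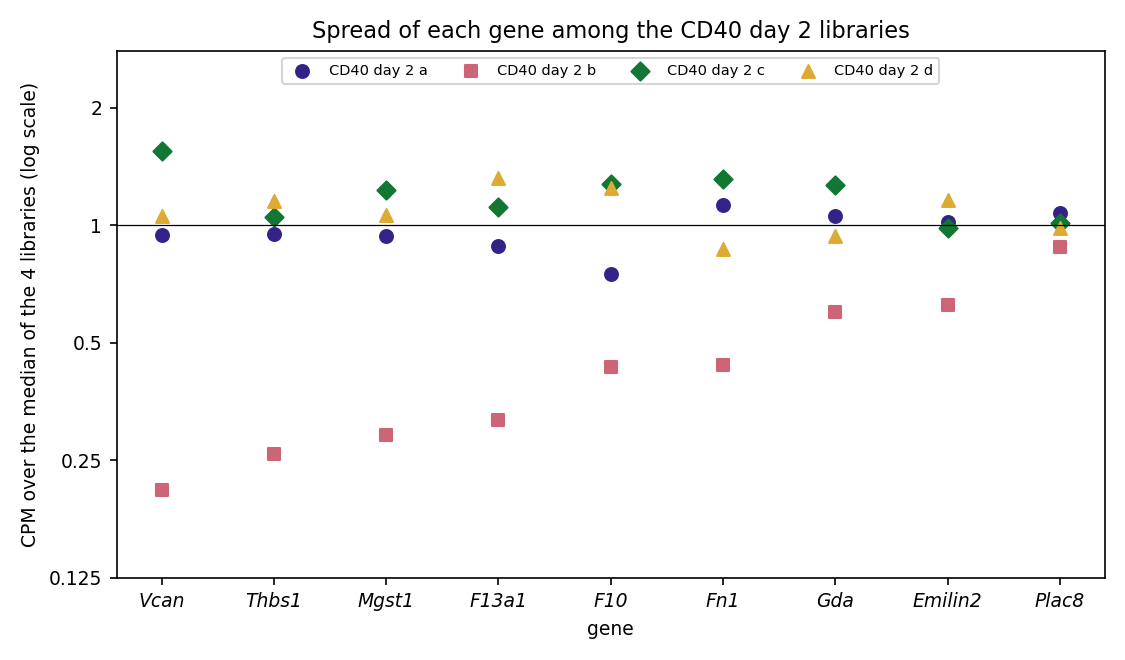
Level of each gene in each CD40 day 2 library divided by the median of the 4 (vertical axis, log scale), with the 9 genes on the horizontal axis ordered by library b. Library b (squares) is the lowest point for every gene, nearest to the others for Plac8 and farthest for Vcan.

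Library b held a different place in different gene lists. It was the lowest of the 4 for 10 of 17 tested matrix receptor genes, 7 of 10 matrix partner genes and 8 of 14 purine genes. It was the lowest for 8 of 17 endothelial, 4 of 12 hepatocyte and 0 of 3 lymphocyte markers, against 33.4% of all genes tested. The 20 classical monocyte markers took 2.90% of counts in b and 3.94% to 4.20% in a, c and d, and b was the lowest library for 16 of them and the highest for 1, Ifitm6 (649 against 482 to 563 CPM). The gap varied within the list. Chil3, a chitinase-like protein of monocytes, was at 147 CPM in b against 812 to 927 CPM in the other 3, and Hp, haptoglobin, at 738 against 1512 to 2215 CPM; both were chosen after their values were seen, as were the dendritic cell genes named next. The 12 conventional dendritic cell markers took 0.142% in b and 0.0685% to 0.0846% in the others, and b was the highest library for all 10 that were tested. Xcr1, a chemokine receptor of such cells, was at 86.3 CPM in b against 5.96 to 14.6 CPM. Ccr7, the receptor that guides them to lymph nodes, was at 259 CPM in b against 12.5 to 68.3 CPM, and Flt3 at 41.0 against 4.77 to 11.8 CPM. The share of all genes with b highest was not counted. The part of these lists in the low values of the 9 genes in b was not tested.

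**Figure D4:**
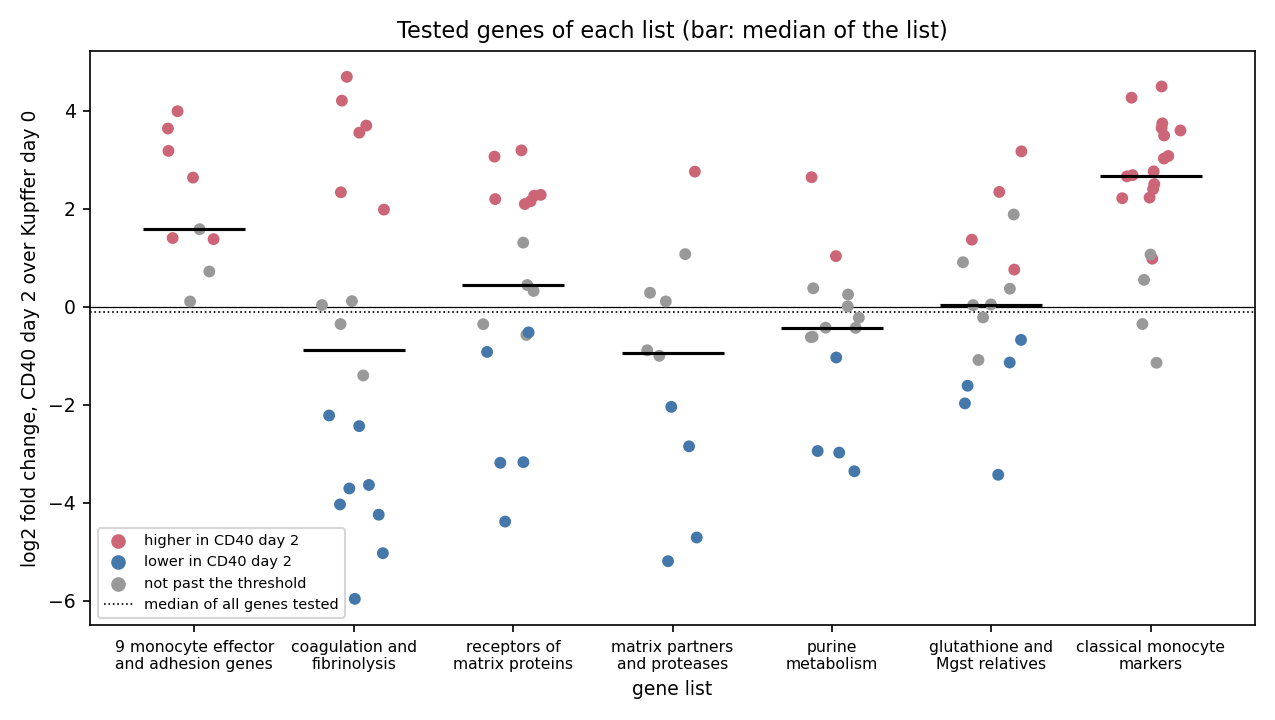
Log2 fold change of CD40 day 2 over Kupffer day 0 (vertical axis) for the tested genes of 7 lists (horizontal axis), each point a gene coloured by its call and each bar the median of the list. The 9 genes have a median of 1.58 and no gene called lower, classical monocyte markers a median of 2.67, and the lists of clotting, matrix partner and purine genes have medians below 0 with calls in both directions.

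Markers of other cells that can hold these transcripts were set beside the members. Of the 20 classical monocyte markers 16 were higher and 0 lower, with a median log2 fold change of 2.67; S100a8, S100a9, Cd14 and Wfdc21 did not pass the threshold. Conventional dendritic cell markers also moved, with 4 of 10 tested higher, 2 lower and a median of 2.97 (2.94 with the gene at 0 counts in Kupffer day 0 at its bound). Their share was 0.0685% to 0.142% of counts against 0.0452% and 0.0511%. Naaa, a lysosomal amidase, was at 551 ± 63.1 against 25.9 ± 3.15 CPM, and Itgax, the CD11c chain, at 49.3 ± 26.0 against 5.61 ± 3.88 CPM. Zbtb46 and Dpp4 were the 2 that fell. The part of these markers in the result for the 9 genes was not tested. Hepatocytes make factor X and fibronectin, and 9 of 12 tested hepatocyte markers were lower in CD40 day 2 and 0 higher, with 0.0139% to 0.0261% of counts against 0.0632% and 0.141%. Their part in the values of F10 and Fn1 was not tested. Platelets hold thrombospondin-1 and factor XIII A. Of their 14 listed markers 10 were among the symbols, and Pf4 and Gp5 were at 0 counts in all 6 libraries. Of 4 tested, 3 were lower and Gp6 alone was higher (483 counts against 3, 69.7 times as much, 95% counting interval 23.7 to 339). Clec1b, 1 of the 3 that were lower, is also on the Kupffer list. It held 903 and 360 of the 948 and 389 counts of the platelet list in Kupffer day 0 a and b. Neutrophil markers took 0.0369% to 0.0428% of counts in CD40 day 2 and 0.0333% and 0.0632% in Kupffer day 0, with 1 of 7 tested, Csf3r, higher. Gata6, the factor that defines large peritoneal macrophages, which also express Fn1, held 3 counts in Kupffer day 0 and 1 in CD40 day 2. Of the 3 tested genes of that list, Lyz1, a lysozyme, was higher (354 counts against 4, adjusted p = 0.0043), and Icam2 (49.7 ± 25.2 against 599 ± 37.0 CPM) and Cd9 (91.7 ± 9.56 against 422 ± 102 CPM) were lower. The call on Lyz1 was lost in 1 of 10 alternatives.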

How the data were processed

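The authors deposited one table of raw counts per gene symbol for 12 libraries, with the totals given in the report. Per the labels' protocol, poly(A) RNA was barcoded with unique molecular identifiers, pooled and sequenced from the 3' end. The submitters' processing notes name GRCm38.p6 as build and DESeq2 1.22.2 as tool. No aligner, counter, annotation or strand setting is named in the labels or the file, nor whether reads or identifiers were counted. Columns carry no replicate number and are named a to d in table order. The columns of Kupffer day 7 and of Ly6C CD40-negative day 2 (6 in all) were not read by gene: the first column of each falls along the table with 1 step up, although the rows follow Kupffer day 0 a.

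Counts of the other 6 libraries were tested with edgeR 4.0.16 in R 4.3.3 (quasi-likelihood test, TMM, filterByExpr, no covariate, two-sided), with Benjamini-Hochberg adjustment over all 9852 genes and a threshold of 0.05. The biological coefficient of variation was 20.4%. SE is the log2 fold change over the square root of F, and levels are mean ± SD CPM (n = 4 and 2). With 15 possible splits, an exact permutation test could not reach a p below 0.067, so calls rest on the shared dispersion. Library pairs within a group had a chi-square of 3.17 to 11.7 per degree of freedom, more than sampling noise gives. The script was tested on simulated counts. Positions are from GENCODE M21 (GRCm38). Members, and the 15 gene lists of pathways and cell markers, were chosen with earlier results of these data known. Named genes are the members, up to 4 called genes with the lowest adjusted p of each pathway list, their relatives and receptors, and leading markers; other genes named were chosen after their values were seen. Alternatives were DESeq2 1.42.0, RLE factors, unscaled totals, no filter, a stricter filter and leaving out each library.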

Additional observations from a re-analysis of the deposited data

Results flagged for a closer look

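Among 82 named genes with at least 10 counts in CD40 day 2, 8 had a library far from the other 3. The rule flags about 1 in 20 groups of independent random values. The 82 genes share the same 4 libraries, and some, Xcr1 among them, were named after their values were seen. The count therefore cannot be set against that rate. None of the 9 members was among the 8. The rule compares a gap with the range and does not measure the size of a difference. Vcan in b, at 4.24 CPM against 19.1 to 31.4 CPM in a, c and d, was therefore not flagged. In library a, Tfpi was at 19.1 CPM, Adamts1 at 18.2, Mmrn2 at 34.6 and Clec4g, an endothelial lectin, at 241 CPM, with the next library at 9.10, 1.82, 5.66 and 102 CPM. Retnlg, a neutrophil marker, was at 130.2 CPM and Nkg7, a lymphocyte granule gene, at 101 CPM in a, the next at 112 and 78.0 CPM. In library b, Xcr1 was at 86.3 CPM and Itgb7 at 149.95 CPM, the next at 14.6 and 118 CPM.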

How the results depend on the processing

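Plac8, F10, Gda and Emilin2 were past the threshold in all 11 alternatives. F13a1 was past it in 6 of 11 and Thbs1 in 9 of 10, and with at least 10 counts in 4 libraries F13a1 missed it (adjusted p = 0.052) and Thbs1 was not tested. Vcan and Mgst1 were past it in 2 of 11 each, without CD40 day 2 b and with no filter (adjusted p = 0.0013 and 0.0039), and Fn1 in 0 of 11. With no filter, 20783 genes were tested and the log2 fold changes of Vcan and Mgst1 were 1.58 and 0.74. As reported they were 1.58 and 0.72, so the p-values moved and the folds hardly did. Leaving out each library in turn, between 4 and 8 of the 9 genes were higher and 0 lower; the strict filter gave 4 and no filter 8. Over the fits that left out 1 library, genes differing ranged from 3206 to 5514, those higher from 1406 to 2551 and those lower from 1800 to 2963, with the lowest values all without Kupffer day 0 a, which leaves a single Kupffer library assumed to vary like the others. DESeq2 called 4465 genes, no filter 6158 and the strict filter 3850. Unscaled totals moved the median log2 fold change of all genes from -0.10 to -0.27 and the calls from 2288 higher and 2974 lower to 1883 and 3361. No paired analysis was possible because the columns carry no replicate numbers. Depth limits Vcan, Thbs1 and F13a1 most, with 18, 13 and 36 counts in the 2 Kupffer libraries together.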
